A study of Mus musculus with 15 samples.

Results

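The polyglutamine ataxin genes and their relatives, 10 genes in all, were followed in mouse Purkinje cells (PCs) from birth to 3 weeks: Atxn1 with its paralog Atxn1l and its partner Cic, Atxn2 with its paralog Atxn2l, and Atxn3, Atxn7, Atxn10, Tbp and Atn1. They were taken by name, as the 10 of 38561 gene rows in the count files whose Ensembl mouse gene identifier carries one of these symbols in GENCODE M21, and the rule uses no measured value. The samples were PCs of C57/BL6 mice at postnatal days 0, 4, 8, 14 and 21 (P0, P4, P8, P14 and P21; the strain is spelled C56/BL6 in the labels), 3 replicates each, which makes 15 samples. The study's methods describe the mice as male, with no other genotype or treatment, and the replicates as biological. At P4 to P21, 1000 PC soma per sample were cut out with a laser, whereas at P0 clusters of PCs were captured. That difference in capture cannot be told apart from age at P0.

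Polyglutamine diseases arise when a CAG repeat in a coding exon grows and the protein gains a long glutamine tract. In several spinocerebellar ataxias of this class the PC is one of the neurons that suffer most, although the genes are expressed widely in the body. The ataxin proteins do not form 1 protein family. Ataxin-1 and its paralog ataxin-1-like bind the DNA-binding repressor capicua (Cic), ataxin-2 and ataxin-2-like are RNA-binding proteins found with poly(A)-binding protein and in stress granules, and ataxin-3 is a deubiquitinase of the protein quality control system. Ataxin-7 anchors the deubiquitinase module of the SAGA coactivator, Tbp is the TATA-binding protein of TFIID, and atrophin-1 (Atn1) is a transcriptional corepressor. Ataxin-10 stands apart, since its disease is caused by an intronic ATTCT repeat and not by glutamine.

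The mouse genes carried few uninterrupted glutamine codons. The longest in-frame run of CAG and CAA codons was read from the GENCODE M21 transcript with the longest coding sequence of each gene, on the GRCm38 build. It was sought anywhere in the coding sequence, and its place was not matched to that of the human disease repeat. Runs are printed below because glutamine-coding repeats are what joins most of these genes in human disease, with a relative (Atxn1l) and Atxn10 for comparison, in the sense strand, with the glutamine codons of the run in capitals and 15 coding bases on either side in lower case.

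Tbp: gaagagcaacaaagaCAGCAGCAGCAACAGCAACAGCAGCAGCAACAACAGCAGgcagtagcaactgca
Atxn3: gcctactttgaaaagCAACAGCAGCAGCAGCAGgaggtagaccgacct
Atxn7: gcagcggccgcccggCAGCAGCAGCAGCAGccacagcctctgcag
Atxn1: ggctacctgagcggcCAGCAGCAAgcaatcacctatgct
Atxn2: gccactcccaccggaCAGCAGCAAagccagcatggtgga
Atxn1l: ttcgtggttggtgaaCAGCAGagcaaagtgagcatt
Atxn10: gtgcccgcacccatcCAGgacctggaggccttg

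Tbp had the longest run, 13 codons of which 9 were CAG and 4 were CAA, at chr17:15504391-15504429 on the plus strand. Atxn3 followed with 6 codons at chr12:101926563-101926580 on the minus strand, and its 15 upstream bases reach into the preceding exon. The Atxn3 run was absent from the other 2 coding transcripts of this gene, whose longest run was 2 codons. Atxn7 had 5 codons, all CAG, at chr14:14013156-14013170 on the plus strand. Atxn1 at chr13:45567080-45567088 on the minus strand and Atxn2 at chr5:121810946-121810954 on the plus strand each had 3. These lie at codons 444 to 446 of 799 in Atxn1 and 1129 to 1131 of 1286 in Atxn2. The runs of Atxn1l, Cic and Atxn2l held 2 codons, and no 2 glutamine codons of Atxn10 were adjacent. Each of these runs lies within 1 coding exon. Glutamine codons of any position made up 11.1% of the Tbp coding sequence and 3.71% of that of Cic, the highest and the lowest share among the 10 genes. Tbp, Atxn3 and Atxn7, the genes with the longest runs, were among the 7 of 10 not called in the trend with age given below. A relation between run length and trend was not tested.

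The total count on genes was 3409371 to 7814951 per sample, so that 3 counts, the limit that a count of 0 allows, corresponded to 0.384 to 0.880 counts per 1e6 counts (CPM), for counting error only. Reads outside genes or shared between genes made up 18.2% to 31.0% of the tallied reads, most in the 3 P0 samples. All 6 markers of PCs (Car8, Pcp4, Ppp1r17, Calb1, Pcp2 and Itpr1) rose with age, and their summed level went from 4549 to 6007 CPM at P0 to 36886 to 46640 at P21. The summed level of 8 glial markers was 3425 to 9807 CPM and was highest in the mean at P8. Of these 8, 3 rose and 2 fell, so the sum joins unlike courses. At P0 the glial sum was 3872 to 5577 CPM, which overlaps with that of the PC markers. The summed level of 5 oligodendrocyte markers was 13.7 to 35.9 CPM at P0 and 396 to 845 at P21, and all 5 rose. Granule cell markers summed to 258 to 1012, while the sums of vascular, interneuron and microglial markers stayed at or below 121 in every sample. Some markers had a count of 0 in all samples of a time point. These were the oligodendrocyte markers Mag and Mobp at P0, Mag at P4 and Mog at P8. The microglial marker Cx3cr1 was at 0 at P4, and the interneuron marker Slit1 from P8 on. In such bulk samples fewer cells of a type and less RNA per cell cannot be told apart.

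All 10 genes passed the filter on low counts, which kept 14293 genes. The question put to each gene was whether its level changed as PCs grew their dendrites and received their synapses over these 3 weeks. In edgeR's quasi-likelihood test on postnatal day as a number, with Benjamini-Hochberg adjustment at 0.05, Atxn1l and Atxn2 rose, Atxn10 fell, and the other 7 were not called. Over all genes tested, 12.1% rose and 14.1% fell. The median slope of the 10 genes was 0.0085 log2 units per day beside -0.0077 for all genes tested, and 6 of the 10 slopes were positive. When the time point entered as a factor, so that any pattern could be found, only Atxn2 was called, beside 19.3% of all genes tested. Levels below are CPM on TMM-scaled library sizes, given for replicates 1, 2 and 3 in turn.

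**Figure D1:**
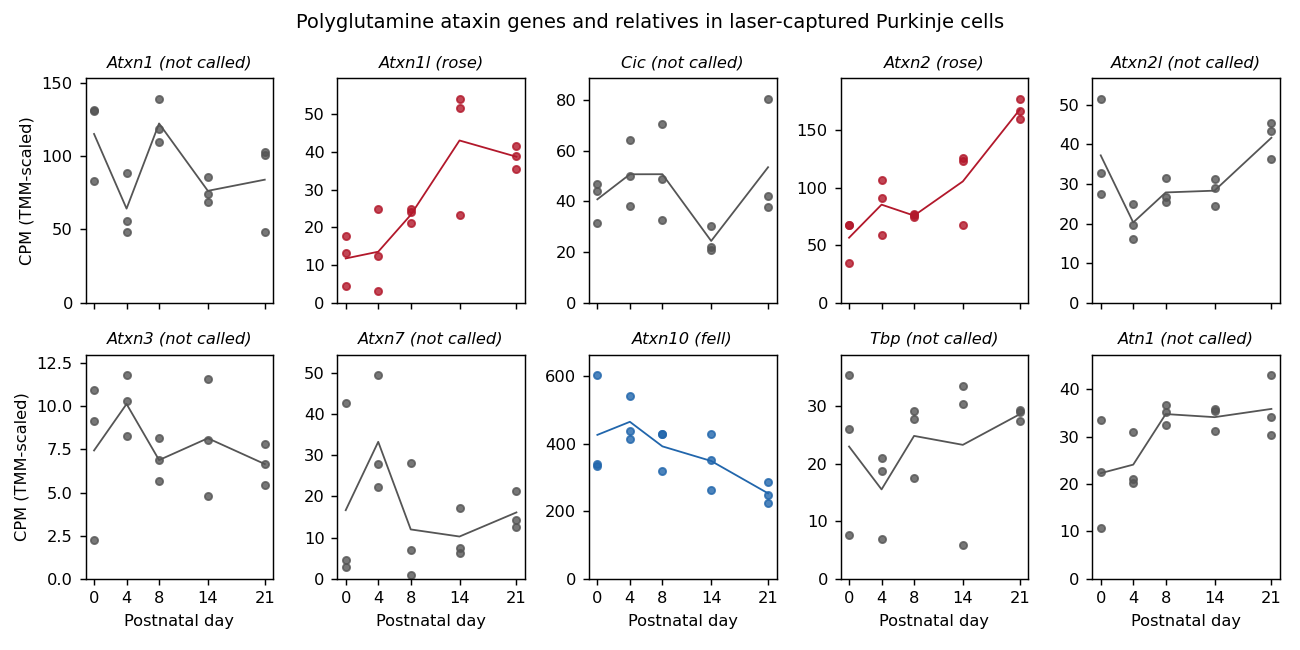
Level (CPM, linear axis from 0) of each of the 10 genes against postnatal day, with 1 point per sample and a line through the mean of the 3 samples of a time point. Red panels (Atxn1l, Atxn2) rose and the blue panel (Atxn10) fell in the trend test, and grey panels were not called; the 3 P21 samples of Atxn2 lie at 159 to 177 CPM, above all other samples.

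Atxn2, whose product regulates translation and the stability of mRNAs, had the smallest adjusted p of the 10. Its level was 34.2, 67.9 and 67.3 CPM at P0, 106, 91.0 and 58.4 at P4, 75.8, 76.7 and 74.5 at P8, 126, 67.4 and 123 at P14, and 167, 159 and 177 at P21. All 3 P21 samples lay above every other sample, whereas P14 replicate 2 lay within the P0 range, so that the 6 samples of P0 and P4 overlapped with the 6 of P14 and P21. The mean went from 56.5 ± 19.3 (SD, n = 3) at P0 to 168 ± 8.95 at P21. The slope was 0.07 ± 0.01 (SE) log2 units per day, a fold of 2.66 over 21 days (95% interval 1.79 to 3.95), with an edgeR adjusted p of 7.05e-04. The factor test gave an adjusted p of 0.0108, and P21 against P0 a log2 difference of 1.57 ± 0.31 (SE; edgeR adjusted p = 0.00162). In the order of its means, P21 stood above P14 by more than their summed SDs, and no other neighbours (P14, P4, P8 and P0) did.

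Atxn1l, the paralog of Atxn1 that shares its binding to capicua, had the steepest slope. Its level was 13.1, 4.56 and 17.6 CPM at P0, 3.19, 12.4 and 25.0 at P4, 24.0, 24.8 and 21.2 at P8, 51.7, 23.4 and 54.1 at P14, and 39.1, 35.6 and 41.6 at P21. The P21 samples and 2 of the 3 P14 samples lay above all samples from P0 to P8, and P14 replicate 2 lay within the P8 range. The slope was 0.10 ± 0.03 (SE) log2 units per day, a fold of 4.12 over 21 days (95% interval 1.77 to 9.58), with an edgeR adjusted p of 0.0131. The spread was wide at the young ages, where the lowest sample held 13 counts. The factor test did not call it (adjusted p = 0.112), nor did P21 against P0 (log2 difference 1.72 ± 0.64, edgeR adjusted p = 0.0656). Without the P0 time point the slope was 0.09 with an edgeR adjusted p of 0.0647, so the call for Atxn1l rests on P0 being included.

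Atxn10, whose product is needed for the survival of cerebellar neurons in culture and binds the O-GlcNAc transferase Ogt, went the other way. Its level was 604, 341 and 334 CPM at P0, 439, 414 and 543 at P4, 318, 429 and 430 at P8, 430, 264 and 353 at P14, and 225, 248 and 286 at P21. P21 replicates 1 and 2 were the lowest of the 15 samples, P21 replicate 3 lay above P14 replicate 2, and P14 replicate 1 lay within the P4 range. The slope was -0.04 ± 0.01 (SE) log2 units per day, a fold of 0.571 over 21 days (95% interval 0.406 to 0.801), with an edgeR adjusted p of 0.0145. P21 against P0 gave a log2 difference of -0.75 ± 0.25 (edgeR adjusted p = 0.0365), and the factor test an adjusted p of 0.105. Without P21 replicate 1 the slope was -0.03 and its adjusted p 0.0554, and with log2(day + 1) in place of the day the adjusted p was 0.115.

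The summed level of the PC markers rose over the same days as Atxn1l and Atxn2, as did that of the oligodendrocyte markers. The glial sum had its highest mean at P8. The part of these cell types in the 3 courses was not tested. Of the 10 genes, 2 (Atxn2 and Atxn10) differed between P21 and P0, beside 22.8% of all genes tested.

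**Figure D2:**
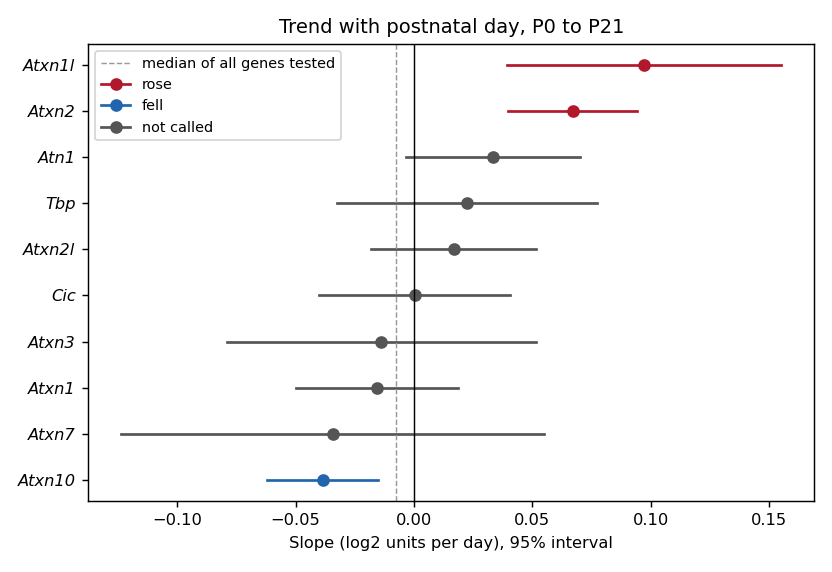
Slope of each gene with postnatal day (log2 units per day, point) and its 95% interval (line) in edgeR's quasi-likelihood fit, ordered by slope. The intervals of Atxn1l, Atxn2 and Atxn10 lie to one side of 0, and those of the other 7 genes include 0; the dashed line is the median of all genes tested, -0.0077.

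Atxn1 itself did not follow its paralog. Its level was 132, 131 and 82.9 CPM at P0, 88.6, 48.5 and 55.5 at P4, 139, 109 and 118 at P8, 68.7, 74.3 and 86.0 at P14, and 102, 48.3 and 101 at P21. The P8 samples lay above all P4 and P14 samples, and P21 replicate 2 was the lowest of all 15. The slope was -0.02 ± 0.02 (SE) log2 units per day with an edgeR adjusted p of 0.537, and its interval allowed a fold of 0.483 to 1.31 over 21 days. The dip at P4 and the peak at P8 gave unadjusted p-values of 0.0170 for P0 to P4, 0.00976 for P4 to P8 and 0.0471 for P8 to P14, and none of these steps passed after adjustment (edgeR adjusted p = 0.212, 0.222 and 0.363).

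Cic, the repressor that both ataxin-1 proteins bind, had no trend in either direction. Its level was 31.5, 44.0 and 46.8 CPM at P0, 64.0, 38.2 and 49.9 at P4, 48.8, 32.6 and 70.7 at P8, 21.9, 30.5 and 20.7 at P14, and 80.5, 42.1 and 37.8 at P21. All P14 samples lay below all other samples, and P21 replicate 1 was the highest. The slope was 2.3e-04 ± 0.02 (SE) log2 units per day with an edgeR adjusted p of 0.995, with an interval of 0.558 to 1.80 in fold over 21 days. The step down to P14 (log2 -1.06 ± 0.40, unadjusted p = 0.0172) and the step up to P21 (log2 1.13 ± 0.40, unadjusted p = 0.0120) did not pass adjustment (edgeR adjusted p = 0.215 and 0.514).

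Because both ataxin-1 proteins use the same partner, the 2 transcripts were also set against each other within each library, which needs no scaling between libraries. The ratio of counts per exon length of Atxn1 to Atxn1l was 5.40, 15.2 and 2.53 at P0, 14.5, 2.1 and 1.2 at P4, 3.13, 2.38 and 3.02 at P8, 0.718, 1.72 and 0.859 at P14, and 1.42, 0.733 and 1.31 at P21. All P0 samples were above 2, all P14 and P21 samples were below it, and the P4 samples spanned nearly the whole range. The geometric mean of the 3 sample ratios was 5.93 at P0 and 1.11 at P21. Over the 15 samples the log2 ratio fell with day (Pearson's r = -0.69, permutation p = 0.00443, 0.00886 adjusted over the 2 paralog pairs; Spearman's rho = -0.71, permutation p = 0.00480, 0.00960 adjusted), and r was -0.65 without P21 replicates 1 and 2. Without the P0 time point r was -0.60 with an adjusted permutation p of 0.0609. Per median length of the coding transcripts every ratio is 3.55 times higher, from 8.98 to 53.9 at P0 and from 2.60 to 5.02 at P21, so that its level depends on the length used and its relation with day does not. This ratio uses the same counts as the slopes above.

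**Figure D3:**
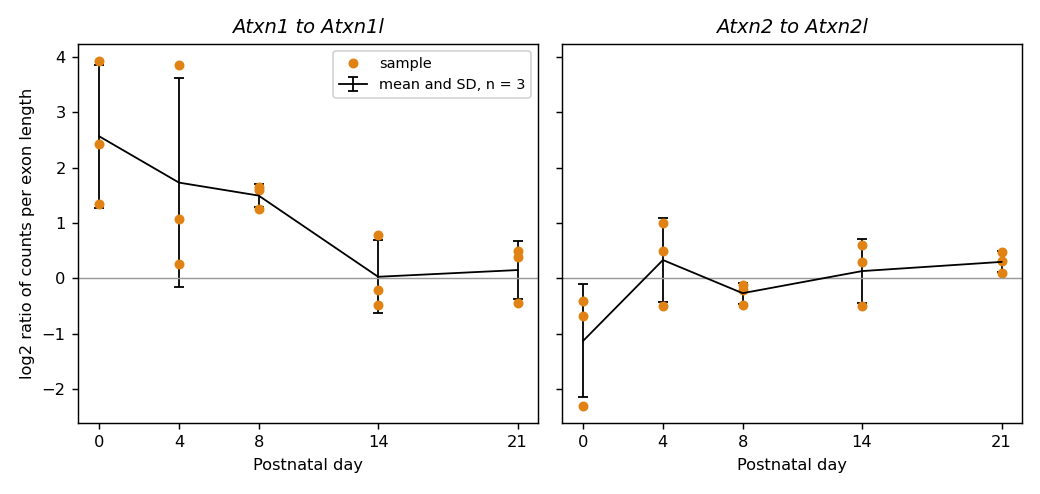
Log2 ratio of counts per exon length of Atxn1 to Atxn1l (left) and of Atxn2 to Atxn2l (right) against postnatal day, with 1 point per sample and black bars for the mean and SD of 3 samples. The left ratio falls from a mean of 2.57 at P0 to 0.15 at P21, and the right one has its lowest sample, -2.30, at P0.

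Atxn2l, the paralog of Atxn2, had the tightest replicates of the 10 genes, with an SD within time points of 0.28 on the log2 scale. Its level was 51.5, 27.4 and 32.8 CPM at P0, 16.2, 19.7 and 25.0 at P4, 26.6, 25.4 and 31.6 at P8, 31.3, 29.1 and 24.6 at P14, and 36.4, 45.3 and 43.4 at P21. P0 replicate 1 was the highest sample, P4 replicates 1 and 2 were the lowest, and P4 replicate 3 lay near the P8 and P14 samples. The slope over all time points was 0.02 ± 0.02 (SE) log2 units per day (edgeR adjusted p = 0.508, a fold of 0.770 to 2.11 over 21 days), and the step from P0 to P4 had an unadjusted p of 0.0326 (adjusted p = 0.279). From P4 to P21 alone, with the P0 samples left out, the slope was 0.06 with an edgeR adjusted p of 0.0381.

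The ratio of Atxn2 to Atxn2l per exon length was 0.203, 0.754 and 0.624 at P0, 1.99, 1.41 and 0.711 at P4, 0.866, 0.919 and 0.716 at P8, 1.22, 0.705 and 1.52 at P14, and 1.39, 1.07 and 1.24 at P21. The P0 and P8 samples lay under 1 and the P21 samples above it, and the P4 and P14 samples lay on both sides. This placing holds for exon length alone, since per median length of the coding transcripts every ratio is 2.86 times higher and 0.579 to 2.15 at P0, 2.05 to 2.63 at P8 and 3.05 to 3.98 at P21. Its relation with day did not pass the test (Pearson's r = 0.48, permutation p = 0.0670, 0.0670 adjusted; Spearman's rho = 0.45, permutation p = 0.0996, 0.0996 adjusted), and r was 0.45 without P21 replicates 1 and 2. It passed without P4 replicate 1 (r = 0.61, adjusted permutation p = 0.0110) and without P4 replicate 2 (r = 0.54, adjusted permutation p = 0.0381). Without the P0 time point r was 0.12 with an adjusted permutation p of 0.696.

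Atn1, which encodes the corepressor atrophin-1, was lower in the mean at P0 and P4 and level from P8. Its level was 10.8, 33.5 and 22.5 CPM at P0, 30.9, 21.1 and 20.2 at P4, 35.1, 32.4 and 36.7 at P8, 31.1, 35.4 and 35.7 at P14, and 34.0, 43.0 and 30.4 at P21. P0 replicate 1 was the lowest sample, and P0 replicate 2 lay within the range of the older samples. The slope of 0.03 ± 0.02 (SE) log2 units per day did not pass (edgeR adjusted p = 0.177), and its interval ran from 0.954 to 2.78 in fold over 21 days.

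Tbp and Atxn3 were also not called in the trend test. Tbp was at 35.4, 7.54 and 25.9 CPM at P0, 18.6, 6.99 and 20.9 at P4, 17.5, 29.2 and 27.7 at P8, 5.89, 33.5 and 30.3 at P14, and 29.4, 27.3 and 29.0 at P21. Single samples at P0, P4 and P14 stood at 5.89 to 7.54 CPM, far below the other 2 of their time point, while the P21 samples lay close together. The slope of Tbp was 0.02 ± 0.03 (SE; edgeR adjusted p = 0.584, a fold of 0.624 to 3.08 over 21 days).

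Atxn3 was the least abundant of the 10 by count, with 11 to 69 counts per sample. Its level was 11.0, 9.13 and 2.23 CPM at P0, 10.3, 8.28 and 11.8 at P4, 5.64, 6.87 and 8.14 at P8, 11.6, 4.79 and 8.06 at P14, and 6.68, 7.84 and 5.44 at P21. P0 replicate 3 was the lowest sample, and all time points overlapped with at least one of the others. Its slope was -0.01 ± 0.03 (SE; edgeR adjusted p = 0.796), which left a fold of 0.316 to 2.12 over 21 days within the interval. Changes within that range are not excluded by these data.

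Atxn7, the gene of spinocerebellar ataxia with retinal degeneration, had the widest spread between replicates. Its level was 2.88, 42.7 and 4.46 CPM at P0, 49.5, 22.4 and 27.9 at P4, 28.0, 7.06 and 0.904 at P8, 6.26, 7.47 and 17.1 at P14, and 12.7, 14.4 and 21.3 at P21. The 3 P4 samples were all above 22, and within P0 and within P8 the highest sample was 14.8 and 31.0 times the lowest, the latter resting on 5 counts in P8 replicate 3. The SD within time points was 1.42 on the log2 scale, wider than in 77.5% of the genes tested. The slope was -0.03 ± 0.04 (SE; edgeR adjusted p = 0.609), with an interval of 0.165 to 2.23 in fold over 21 days. The median SD within time points of the 10 genes was 0.43 beside 0.79 over all genes tested, and Tbp (0.90) and Atxn1l (0.84) also lay above the latter.

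No step between neighbouring time points was called for any of the 10 genes by edgeR, 0 of 40 tests, with 7 at an unadjusted p under 0.05, and DESeq2 called 0 of 40 as well. The share of all genes with an unadjusted step p under 0.05 was not computed, so the 7 are not read as a result about these genes. Over all genes tested, edgeR called 1.97% from P0 to P4, 1.13% from P4 to P8, 2.67% from P8 to P14 and 0.329% from P14 to P21, where DESeq2 called 785, 496, 844 and 173 genes and edgeR 281, 162, 382 and 47. The 7 were the 3 steps of Atxn1, the 2 of Cic and the first of Atxn2l given above, and the step of Atxn2 from P14 to P21 (log2 0.67 ± 0.31, edgeR adjusted p = 0.694). In the order of time point means, few neighbours differed by more than their summed SDs. These were P21 above P8 in Atxn1l, P0 above P14 in Cic, P21 above P14 in Atxn2 and P14 above P4 in Atn1. The share of such gaps over all genes was not computed, so they only describe these samples.

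Compared per length, Atxn10 was by far the most abundant of the 10. Its mean level over the 15 samples was 198 reads per 1000 bases of summed exon length and per 1e6 counts on genes (RPKM), and that of the other 9 lay between 1.46 (Atxn3) and 6.73 (Atxn1) RPKM. Atxn10 stood at 246 ± 87.0 RPKM (SD, n = 3) at P0 and 114 ± 15.5 at P21. Among the others the order depends on the length used. Per median length of their coding transcripts, Atxn1 (24.0 RPKM) and Atxn2 (21.3 RPKM) came next, then Tbp at 11.6, and Atxn1l came last at 3.36. Summed exon lengths of Atxn1, Atxn2 and Tbp are 13914, 15689 and 13576 bases, and those of Tbp include a transcript of 12794 bases.

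**Figure D4:**
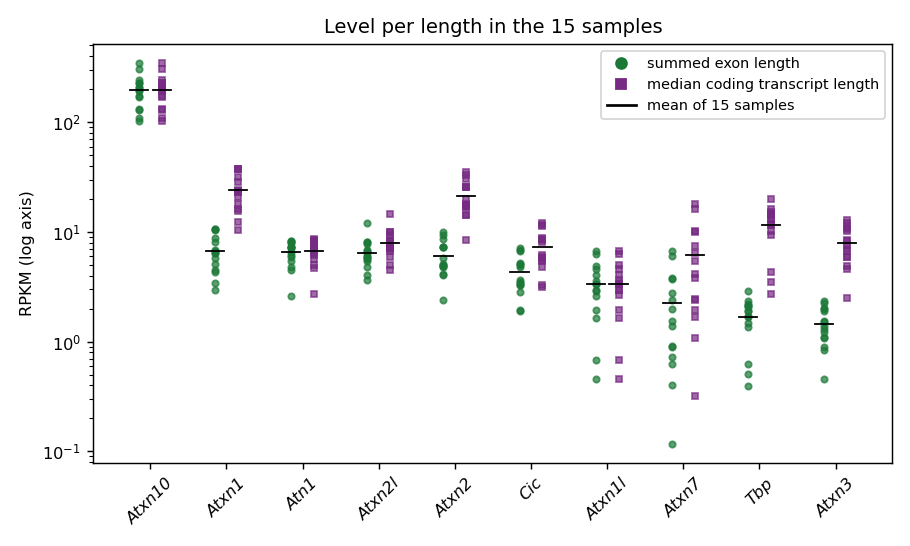
Level per length (RPKM, log axis) of the 10 genes in each of the 15 samples, per summed exon length (green circles) and per median length of the coding transcripts (purple squares), with black bars for the means. Atxn10 lies above all others with a mean of 198 RPKM on both lengths, and the order of the rest shifts with the length.

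Some exons are shared with other genes. Atxn1l, Cic, Atxn2l, Atxn3, Atxn7 and Atxn10 had no exon that overlapped another gene's. Tbp (chr17:15499888-15528379, plus strand) shares 2582 bases, 19.0% of its exon length, with Pdcd2 on the opposite strand, and the SMARTer kit does not mark strand, so that reads of the 2 genes cannot be told apart there. Atxn1 (chr13:45549755-45965008, minus strand) shares 375 bases with Gmpr and Atxn2 (chr5:121711337-121816493, plus strand) 99 bases with Sh2b3, both on the opposite strand. Atn1 (chr6:124742544-124756524, minus strand) shares 3874 bases, 84.2% of its exon length, with Gm45234 on the same strand, which has no row in the files.

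Across the 15 samples the 10 genes did not move together. Over their 45 pairs the Pearson's r of log2 CPM had a median of -0.07, with 19 pairs above 0. The highest was 0.66 between Atxn2 and Atn1 and the lowest -0.68 between Atxn10 and Atn1. Atxn1 and Cic were at 0.19, Atxn1l and Cic at -0.37, Atxn1 and Atxn1l at -0.21 and Atxn2 and Atxn2l at 0.03. These are descriptions over samples that share age, so that genes with like courses correlate.

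Among all genes tested, those most like Atxn2 in log2 CPM over the 15 samples were Ap2b1 (r = 0.93), which encodes a subunit of the clathrin adaptor AP-2, Pcp4l1 (0.91), named as a relative of the PC protein Pcp4, and Tacc1 (0.91), and all 3 rose. Most like Atxn1l were Ssx2ip (0.94), Cntnap5b (0.93) and Cldn12 (0.91), which rose as well. Atxn10 was most like Gdi2 (0.89), a regulator of Rab proteins, the nucleic acid-binding protein gene Cnbp (0.88) and Lrriq1 (0.87), a gene at low counts, all of which fell. The closest genes were Ankrd50, Nova1 and Rasa3 for Atxn1 (0.81 to 0.85), Rangap1, Snrnp70 and March6 for Cic (0.77 to 0.84), and Jund, Rab3gap2 and Bcl11b for Atxn2l (0.84 to 0.87). For Atxn3 they were Gne, Gfm2 and Ifrd2 (0.83 to 0.85), for Atxn7 Mettl5, Ints2 and Gar1 (0.76 to 0.78), for Tbp Trim39, Trim41 and Mgme1 (0.80 to 0.84), and for Atn1 Nkrf, Bola3 and Msrb2 (0.90 to 0.92). None of the genes most like Atxn1, Cic, Atxn2l, Atxn3, Atxn7 or Tbp passed the trend test. Genes picked for a high r over these same samples have a like course by choice, so their trend calls are no separate result.

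The binding partners and pathway genes of the 10 proteins were listed by what is known of them, 107 genes in 11 groups, of which 103 passed the filter on low counts. The lists were made with earlier results of these data known. Of these, 14 rose, 17 fell and 72 were not called, beside 12.1% and 14.1% of all genes tested, and their median slope was -0.0039 log2 units per day. With the time point as a factor, edgeR called 17 of the 103, beside 19.3% of all genes tested. Tbpl2, Dusp4, Gfi1 and Nr2e1 did not pass the filter. Each group below held at most 15 tested genes, and its counts stand beside the same shares.

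**Figure D5:**
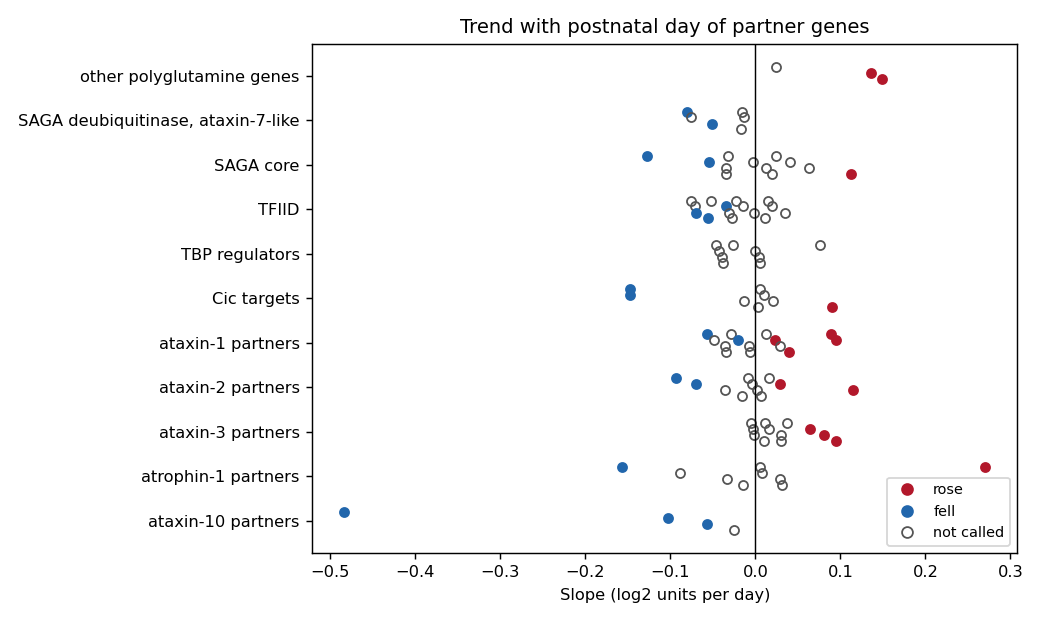
Slope with postnatal day (log2 units per day) of the 103 partner genes tested, in 11 groups, with filled points for genes that rose (red) or fell (blue) and open points for genes not called. Baiap2 at 0.27 and Aurkb at -0.48, which had no count at P21, lie farthest out.

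Of the other genes whose human counterparts carry glutamine-coding repeats, Cacna1a, the P/Q-type calcium channel of PCs and the gene of spinocerebellar ataxia type 6, rose from 27.8 ± 12 CPM (SD, n = 3) at P0 to 197 ± 72.2 at P21 with a slope of 0.14 ± 0.02 (SE; edgeR adjusted p = 7.30e-06). Htt, the Huntington disease gene, was at 42.9 and 49.7 CPM and was not called (slope 0.02, edgeR adjusted p = 0.434).

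The partners of ataxin-1 gave 4 that rose and 2 that fell of 14 tested, with a median slope of -0.0074. Rora, the nuclear receptor that drives PC maturation and binds ataxin-1 through Kat5, rose from 658 ± 15.8 to 2219 ± 205 CPM (slope 0.09 ± 0.01, edgeR adjusted p = 4.93e-06). The kinase gene Nlk rose from 33.5 ± 9.71 to 164 ± 39.0 CPM, and Anp32a, the leucine-rich acidic nuclear protein, from 139 ± 19.0 to 210 ± 46.2. Of the 14-3-3 genes, whose products bind phosphorylated ataxin-1, Ywhaz also rose (slope 0.02) whereas Ywhae fell by 0.02 log2 units per day, and the ubiquilin gene Ubqln4 fell from 70.8 ± 5.76 to 29.4 ± 2.39 CPM. Ywhaz, Ywhae and Ubqln4 did not pass the factor test (edgeR adjusted p = 0.163, 0.107 and 0.0592). Rbm17 was at 29.3 and 29.1 CPM and was not called.

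Among genes that capicua is known to repress, 1 rose and 2 fell of 8 tested, with a median slope of 0.0040. Etv1 rose from 19.5 ± 3.73 to 50.4 ± 29.9 CPM (edgeR adjusted p = 0.0165), while Spry4 went from 17.8 ± 14.3 to 1.85 ± 1.36 and Spred3 from 12.8 ± 5.38 to 1.59 ± 0.645, both of which fell (edgeR adjusted p = 0.0282 and 0.0178). The factor test called Etv1 and not Spry4 or Spred3 (edgeR adjusted p = 0.0352, 0.117 and 0.122). Etv5 was at 81.5 and 104 CPM and Dusp6 at 30.4 at both ages, and neither was called.

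Of 11 genes of ataxin-2 partners and stress granule proteins, 2 rose and 2 fell, with a median slope of -0.0039. Pabpc1, the poly(A)-binding protein that ataxin-2 binds directly, fell from 248 ± 74.1 to 105 ± 10.9 CPM (slope -0.07, edgeR adjusted p = 2.96e-04), and Tia1, a nucleator of stress granules, from 191 ± 66.0 to 59.5 ± 3.05 (slope -0.09, edgeR adjusted p = 1.39e-05). Rbfox1, a splicing regulator first found as an ataxin-2 binding protein, rose from 35.5 ± 11.8 to 159 ± 33.3 CPM (slope 0.11, edgeR adjusted p = 1.86e-05), and G3bp2 rose with a slope of 0.03 but did not pass the factor test (edgeR adjusted p = 0.216). Tardbp, at 148 and 123 CPM, was not called.

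The ataxin-3 group, of ubiquitin and protein quality control genes, had 3 that rose and none that fell of 12 tested, with a median slope of 0.023 beside -0.0077 for all genes. Syvn1, a ubiquitin ligase of the endoplasmic reticulum, rose from 33.0 ± 4.08 to 116 ± 17.3 CPM, and the ataxin-3 relative Josd2 from 16.8 ± 5.56 to 37.2 ± 16.4, the last without passing the factor test (edgeR adjusted p = 0.240). Vcp, the segregase that ataxin-3 works with, was at 161 and 176 CPM and was not called (edgeR adjusted p = 0.440).

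The SAGA deubiquitinase module, which ataxin-7 anchors, had 2 that fell of 6 tested with its ataxin-7-like genes. Usp22, its catalytic subunit, fell from 403 ± 36.2 to 136 ± 6.87 CPM (slope -0.08 ± 0.01, edgeR adjusted p = 3.61e-05) and Eny2 from 122 ± 23.5 to 58.0 ± 11.5 (edgeR adjusted p = 5.90e-04). The relatives Atxn7l1, Atxn7l2, Atxn7l3 and Atxn7l3b had negative slopes of -0.01 to -0.08 and were not called. Of the other 12 SAGA subunits, the acetyltransferase gene Kat2b rose while Supt20 and Trrap fell, and these 3 did not pass the factor test (edgeR adjusted p = 0.0890, 0.345 and 0.0726).

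Around Tbp, 3 of 15 TFIID subunits fell, beside 14.1% of all genes tested, none rose, and the median slope was -0.0275. Taf1, the largest subunit, went from 59.1 ± 11.7 to 33.7 ± 8.31 CPM (slope -0.06, edgeR adjusted p = 0.0201), Taf2 from 30.4 ± 14.8 to 13.0 ± 6.02 and Taf9 from 251 ± 77.6 to 153 ± 15.9. With the time point as a factor these 3 did not pass (edgeR adjusted p = 0.0507, 0.133 and 0.152). Of the 9 TBP relatives and regulators tested, none was called. Among 9 partners of atrophin-1, Baiap2, a scaffold of dendritic spines, rose from 25.6 ± 18.2 to 990 ± 44.0 CPM (slope 0.27 ± 0.03, edgeR adjusted p = 7.71e-07) and the corepressor gene Runx1t1 fell from 257 ± 178 to 21.6 ± 3.57, and the atrophin relative Rere was at 66.2 and 68.4 CPM and was not called.

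Of the 4 genes linked to ataxin-10, 3 fell, beside 14.1% of all genes tested, with a median slope of -0.080. Mgea5, the O-GlcNAcase that reverses the action of Ogt, fell from 141 ± 3.63 to 62.2 ± 17.9 CPM (edgeR adjusted p = 0.00340) and Gnb2, a G protein subunit, from 147 ± 43.4 to 31.8 ± 6.77 (edgeR adjusted p = 7.01e-05). The mitotic kinase gene Aurkb was at 19.9 ± 13.1 CPM at P0 and had no count in any P21 sample. Ogt was at 200 and 133 CPM and was not called (slope -0.02, edgeR adjusted p = 0.348).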

How the data were processed

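RNA of laser-captured PCs was amplified by the authors with the SMARTer Ultra Low kit and sequenced. Per the labels and methods, the authors trimmed reads with FASTX and cutadapt 1.2.1, aligned them to GRCm38.p1/mm10 with GSNAP (version in the labels), kept unique reads and counted them per gene with HTSeq 0.5.3p9 in intersection-strict mode. The deposited values are raw counts, 1 file per sample. The strand setting and annotation release are not given in the sources used here. Unique mapping lowers counts where paralogs share sequence.

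The 10 genes and the partner lists were chosen with earlier results of these data known. Symbols, exons and transcripts came from GENCODE M21. edgeR 4.0.16 (R 4.3.3) fitted the counts of all 15 samples with TMM scaling, filterByExpr by time point and Benjamini-Hochberg adjustment over 14293 genes at 0.05, with day as a number, with time point as a factor, and for neighbouring steps. CPM used TMM-scaled library sizes, and RPKM the unscaled total. The standard error of a slope is its size divided by the root of F, and intervals are 95%. Paralog ratios used 0.5 added counts and 100000 two-sided permutations. Named were all 10 genes, up to 3 called genes per list and direction with the largest slopes, and the 3 genes most correlated with each of the 10; other partners were chosen after their values were seen, and a few items these rules select are not reported here. Alternatives used DESeq2 1.42.0 and limma 3.58.1 and other choices given in the closing section. Scripts were tested on simulated data. Other tools were Python 3.11.15, numpy 2.4.6, scipy 1.17.1, pandas 2.3.3 and matplotlib 3.10.9.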

Additional observations from a re-analysis of the deposited data

How the results depend on the processing

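Alternatives were RLE size factors, no filter on low counts, DESeq2, limma-voom, a replicate block, log2(day + 1), leaving out P0, and leaving out each sample in turn. Atxn2 passed the trend test in all 22 of them. Atxn1l lost the call without P0, Atxn10 without P21 replicate 1 and with log2(day + 1), and Atxn2l gained it without P0, as given in the report. In the test of any difference, DESeq2 also called Atxn1l and Atxn10 (adjusted p = 0.0337 and 0.0235), limma-voom Atxn1l (0.0275), the fit without P0 Atxn10 (0.0487) and the fit without P4 replicate 3 Atxn1l (0.0443). Slopes near 0 changed sign without a call. That of Cic was -1.7e-04 with RLE, -5.2e-04 without a filter, -2.1e-04 with DESeq2, -9.6e-04 with the replicate block, -0.0122 with limma-voom and -0.0041 without P0, and -0.0229 to 0.0047 with 1 sample left out. That of Atxn1 was 8.2e-04 without P0, and that of Atxn7 0.0084 with limma-voom. No step of the 10 genes was called under any alternative run for the steps, while over all genes DESeq2 called 785, 496, 844 and 173 at the 4 steps (edgeR 281, 162, 382 and 47), and edgeR with 1 sample left out 186 to 302, 74 to 201, 163 to 441 and 24 to 68. The Atxn1 to Atxn1l ratio kept r between -0.75 and -0.64 with 1 sample left out, and r was -0.60 without P0 (adjusted permutation p = 0.0609). For Atxn2 to Atxn2l, r was 0.36 to 0.61 with 1 sample left out and 0.12 without P0 (adjusted permutation p = 0.696). Scaling by transcript in place of exon length, chosen after seeing the data, left both r as they were. Replicate numbers did not pair samples (30 pairs, mean correlation of deviations -0.0033, none above 0.1). The replicate block gave 1723 genes that rose and 1911 that fell, and changed no call of the 10 genes. The causes were not tested. With 3 samples per time point, intervals of slopes of Atxn7, Atxn3, Atxn1l and Tbp remain several-fold wide.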
